A study of Rattus norvegicus with 9 samples.

Results

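The genes carried by the rat mitochondrial genome were followed in the left ventricle of 3 groups of rats, and 37 of the 35843 rows of the expression table belonged to them. They were the 13 rows named ND1, ND2, ND3, ND4, ND4L, ND5, ND6, COX1, COX2, COX3, ATP6, ATP8 and CYTB in upper case, and 24 loci without a gene name that carry the prefix AY172581. The samples were hearts of adult male SD (Sprague-Dawley) rats taken at day 28, with 3 biological replicates in each of 3 groups, taken here as 1 rat per library. Each sample title names more than 1 item for its library, and the labels do not say whether these are read files, tissue pieces or animals. Group Sham had the chest operation without ligation and saline by daily gavage, and group MI had a permanent ligature on the LAD (left anterior descending) coronary artery and the same saline. The third group, MI + DAPA (1st d), called the DAPA group below, had the ligation and daily gavage of dapagliflozin (DAPA), an SGLT2 inhibitor, from the first day, so both ligated groups share the infarct. A group given DAPA without infarct was not analysed here. For molecular experiments the study sampled mainly the border of the infarct after removing the scar, and the corresponding place in sham hearts. For the RNA-seq it names left ventricles in its methods and infarct myocardium in its results. Whether the sequenced tissue was free of scar is therefore not clear.

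The mitochondrial genome is a small circle that each mitochondrion holds in several copies. It encodes subunits of the respiratory chain and of the ATP synthase, together with the rRNAs and tRNAs needed to translate them inside the organelle, while the other subunits of the same complexes come from nuclear genes. Both strands are transcribed as long precursors from which the tRNAs are cut out, and the rRNAs and most of the mRNAs then receive short A tails. Heart muscle is among the tissues richest in mitochondria, and its mitochondrial mRNAs are among the most abundant RNAs of the tissue.

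Values are FPKM, fragments per length of gene and per library denominator, a level per length. MI vs. Sham, DAPA vs. MI and DAPA vs. Sham stand for the comparisons of the groups in that order. Whole reads and the gene lengths behind them could be worked back from the FPKM values, and they gave 13601889 to 17212030 reads on genes per rat. The lengths separated the unnamed loci into 2 long ones, AY172581.24 of 1571 bases and AY172581.9 of 958 bases, which are of rRNA length, and 20 short ones of 60 to 75 bases, which are of tRNA length. AY172581.21 had a value in 2 rats only and AY172581.13 stood at 0 in all 9, and no length was obtained for them. The file does not pair the loci with tRNA or rRNA names, so they are given by locus name. The cardiomyocyte genes Tnnt2, Tnni3, Myh6 and Myl2 were present in every rat, with Tnnt2, a troponin of the thin filament, between 489 and 4410 FPKM.

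Mitochondrial genes took most of the reads of sham hearts and far fewer after infarction. They held 61.1%, 61.6% and 66.9% of the reads on genes in the 3 Sham rats, 15.4%, 7.07% and 19.1% in the 3 MI rats, and 27.2%, 32.0% and 17.5% in the 3 DAPA rats. No Sham rat came near a rat of the ligated groups, whereas DAPA replicate 3 lay between MI replicates 1 and 3. The share averaged 63.2% ± 3.18 in group Sham, 13.8% ± 6.15 in the MI group and 25.6% ± 7.42 in the DAPA group (SD, n = 3 each). In MI vs. Sham the difference was -49.4 percentage points (exact permutation test, two-sided p = 0.1, which is the smallest p that 3 rats against 3 allow). It was 11.7 points in DAPA vs. MI (exact permutation test, p = 0.2) and -37.6 points in DAPA vs. Sham (exact permutation test, p = 0.1). All 10 of the 10 most expressed genes were mitochondrial in each Sham rat, against 8, 5 and 8 in the MI rats and 8, 9 and 8 in the DAPA rats.

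This share sets how the FPKM values must be read. The library denominator of the deposited FPKM was 0.512 to 0.619 of a rat's reads on genes in group Sham, 1.19 to 1.298 in group MI and 0.954 to 1.24 in the DAPA group, so the FPKM values are not per total reads. With them the median log2 fold change over all tested genes lay at -0.01 in MI vs. Sham. When each library was scaled to all its reads on genes instead, that median moved to 0.91. The changes of mitochondrial genes below are on the deposited scale, and values on the other scale are named as such.

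Complex I, the NADH dehydrogenase that feeds electrons into the chain, takes 7 of its subunits from mitochondrial mRNAs. ND1, a core membrane subunit of complex I, stood at 64977, 64211 and 89027 FPKM in the Sham rats, at 8718, 3899 and 11932 FPKM in the MI rats and at 18557, 24088 and 10482 FPKM in the DAPA rats. ND2, one of the proton-pumping membrane subunits, stood at 59882, 45843 and 76281 FPKM in group Sham, at 7380, 2781 and 9697 FPKM in the MI group and at 15755, 18727 and 8680 FPKM in the DAPA group. For both genes every Sham rat lay far above every ligated rat, and MI replicate 2 was the lowest of the 9 rats. ND3, a small membrane subunit, stood at 32877, 43271 and 41692 FPKM in group Sham, at 5381, 2335 and 6849 FPKM in the MI group and at 13506, 15559 and 6767 FPKM in the DAPA group. ND5, another proton-pumping subunit, stood at 14479, 16169 and 22524 FPKM in group Sham, at 1995, 877 and 2788 FPKM in the MI group and at 3751, 5350 and 2134 FPKM in the DAPA group. In ND3 and ND5 the first and second DAPA rats were above all MI rats and the third was not.

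ND4L and ND4 lie on a shared transcript with overlapping reading frames, so reads in the overlap cannot be assigned with certainty. ND4L stood at 20734, 21143 and 30770.5 FPKM in group Sham, at 2947, 1148 and 4012 FPKM in the MI group and at 5480, 8072 and 3475 FPKM in the DAPA group. ND4 was listed much lower, at 4226, 4670 and 5738 FPKM in group Sham, at 499, 223 and 733 FPKM in the MI group and at 1028, 1213 and 694 FPKM in the DAPA group. The FPKM ratio of ND4 to ND4L was between 0.15 and 0.22 in all 9 rats, so the low listing of ND4 was common to the groups. ND6 is the mRNA made from the strand opposite to the others. It stood at 9946, 15067 and 18155 FPKM in group Sham, at 1704, 843 and 2607 FPKM in the MI group and at 4314, 5729 and 1885 FPKM in the DAPA group. The library kit does not mark strand, so reads of ND6 and of RNA complementary to it cannot be told apart. ND6 amounted to 1.01% to 1.66% of the summed FPKM of the other 12 mRNAs, and the groups overlapped in this share.

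CYTB, the cytochrome b of complex III, stood at 81467, 82499 and 112326 FPKM in group Sham, at 11357, 4981 and 14235 FPKM in the MI group and at 21901, 30090 and 12105 FPKM in the DAPA group. The pattern was that of ND1, with the groups Sham and MI far apart and the third DAPA rat between MI replicates 1 and 3.

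Complex IV, cytochrome c oxidase, takes its 3 catalytic core subunits from mitochondrial mRNAs, which were the most abundant members together with ATP6. COX1, which holds the site of oxygen reduction, stood at 225581, 227670 and 297545 FPKM in group Sham, at 24779, 10899 and 31170 FPKM in the MI group and at 56860, 68841 and 28782 FPKM in the DAPA group. COX2, which takes electrons from cytochrome c, stood at 108182, 135858 and 140897 FPKM in group Sham, at 15811, 6976 and 21067 FPKM in the MI group and at 33933, 42067 and 17541 FPKM in the DAPA group. COX3 stood at 177741, 200022 and 254709 FPKM in group Sham, at 24280, 11608 and 32664 FPKM in the MI group and at 53678, 68329 and 29242 FPKM in the DAPA group. Sham replicate 3 was the highest and MI replicate 2 the lowest of the 9 rats in all 3 genes.

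ATP6 and ATP8 encode membrane subunits of the ATP synthase, complex V, and their reading frames overlap too. ATP6 stood at 194669, 186673 and 225705 FPKM in group Sham, at 23745, 9990 and 29045 FPKM in the MI group and at 48242, 63154 and 25302 FPKM in the DAPA group. ATP8 was listed at 685, 407 and 579 FPKM in group Sham, at 90.3, 40.5 and 111 FPKM in the MI group and at 186, 222 and 115 FPKM in the DAPA group. ATP8 was the only mRNA of the 13 whose DAPA rats were all above the MI rats. Among all genes tested in DAPA vs. MI, 6.63% were higher without overlap, so 1 of 13 is near that share. Its level was 0.218% to 0.456% of that of ATP6 although both come from one transcript, so its value rests on the few reads the counting left to it, 146 to 1463 per rat.

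**Figure D1:**
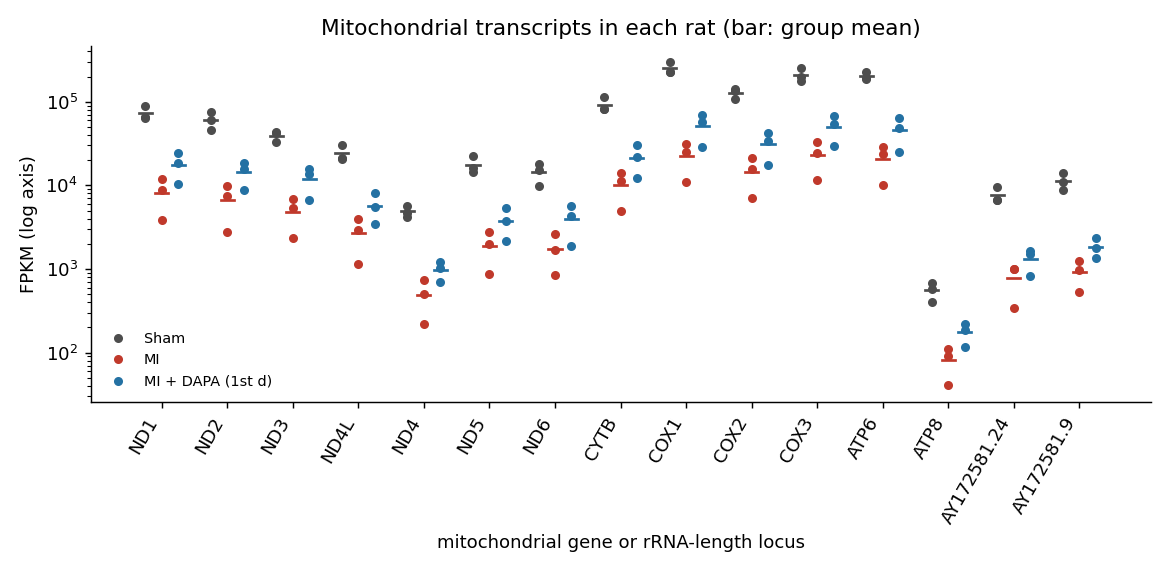
FPKM on a log axis of the 13 mitochondrial mRNAs and the 2 rRNA-length loci, with 1 point per rat and a bar at the group mean (n = 3 each). In each mRNA all Sham rats lie above all ligated rats. Among the mRNAs the MI and DAPA rats do not overlap only in ATP8, where 6.63% of all genes tested were higher without overlap.

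Every mitochondrial mRNA was lower after infarction. In MI vs. Sham 13 of the 13 mRNAs passed the test as lower (limma, unadjusted p under 0.05 with a log2 fold change beyond 1 in either direction), where 10.3% of the 13485 genes tested did. Their log2 fold changes were between -3.61 in COX1 and -2.86 in ATP8 with a median of -3.31, against -0.01 over all genes tested, and their limma adjusted p lay between 0.00182 and 0.00524. COX1 was 11.2-fold lower by group means (log2 fold change -3.61 ± 0.59, SE, n = 3 per group, limma adjusted p = 0.00428), and ND4, at -3.48 ± 0.43, had the smallest adjusted p of 0.00182. The groups did not overlap in 13 of 13 mRNAs, where 27.5% of all genes tested were lower without overlap. An adjusted p under 0.05 with a lower level was found for 19.5% of all genes tested. Scaled to all reads on genes, the 13 mRNAs were still called lower, with a median of -2.20 against 0.91 over all genes tested, while without the filter on low values 6 of them were called.

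The fall was largest in MI replicate 2, which was the lowest of the 9 rats in 13 of 13 mRNAs. MI replicate 3 exceeded it by a median factor of 3.02 over the 13 mRNAs, with 2.75 and 3.49 as the extremes, so the mRNAs varied together between rats. Without MI replicate 2 the median log2 fold change was -2.82 and 13 of 13 mRNAs were still called. Markers of other cells moved with the groups. The summed FPKM of 8 fibroblast markers was 713, 436 and 439 in the Sham rats, 5554, 7367 and 3770 in the MI rats and 2321, 2943 and 4060 in the DAPA rats. That of 7 macrophage markers was 92.7 to 204 in group Sham, 757 to 1505 in group MI and 409 to 924 in the DAPA group. In MI replicate 2 the summed FPKM of 14 cardiomyocyte markers was lowest, at 3039, and that of the B cell markers highest, at 55.6 against 0.683 to 8.74 in the other rats. The 5 endothelial markers summed to 817, 758 and 842 FPKM in the Sham rats, 210, 189 and 249 in the MI rats and 278, 274 and 308 in the DAPA rats. The group means were in the order of those of the mitochondrial mRNAs, and the groups did not overlap. Within the DAPA group, replicate 3 had the highest endothelial sum but the lowest level in 13 of 13 mRNAs. The atrial myocyte sums were 5.77 to 25.5 in Sham rats, 9.51 to 64.7 in MI rats and 60.3 to 132 in DAPA rats. The erythroid sums (598 to 1057 in MI rats, 10.2 to 357 in DAPA rats) and the T cell sums (9.39 to 89.5 and 6.29 to 8.28) were lower in every DAPA rat than in any MI rat, and the adipocyte sums were higher (0.414 to 0.918 and 1.298 to 9.19). The part of these markers in the differences of the mRNAs was not tested. In bulk tissue, fewer cells of a type and less RNA per cell cannot be told apart.

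With DAPA the mRNAs lay higher than in group MI, but the rats overlapped. In DAPA vs. MI the log2 fold changes of the 13 mRNAs were all positive, between 1.04 in ND5 and 1.35 in ND3, with a median of 1.17 against -0.02 over all genes tested. Only 2 of the 13 passed the test as higher, ATP8 (log2 fold change 1.17 ± 0.42, SE, n = 3 per group, limma adjusted p = 0.558) and ND4 (1.13 ± 0.47, limma adjusted p = 0.558), where 0.951% of the 13251 genes tested were called higher and 1.11% lower. None of the 13 passed after Benjamini-Hochberg adjustment in limma (smallest adjusted p = 0.558), and neither did any other of the 13251 genes. The most abundant mRNA, COX1, had a log2 fold change of 1.25 with a 95% confidence interval from -0.67 to 3.17, which includes 0. That of ND3 reached from -0.08 to 2.78.

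Single rats decided these calls. DAPA replicates 1 and 2 were above every MI rat in 13 of 13 mRNAs, while replicate 3 was below MI replicate 3 in 12 of 13 and above MI replicate 1 in 13 of 13. Without DAPA replicate 3, 13 of 13 mRNAs were called and the median log2 fold change was 1.51. Without MI replicate 2 the number called in limma was 0, with 1 mRNA, ATP8, at an unadjusted p under 0.05, and the median was 0.70. The number called was also 0 without DAPA replicate 1, 0 without replicate 2 and 1 without MI replicate 1. Without MI replicate 3 it was 3, ND4, ND6 and ATP8, at a median of 1.51. Scaled to all reads on genes, 0 were called, with 1 mRNA, ATP8, at an unadjusted p under 0.05, and the median was 0.95 against -0.21 over all genes.

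The mRNAs of DAPA-treated hearts remained below those of sham hearts. In DAPA vs. Sham 13 of 13 mRNAs were called lower, where 8.16% of 13359 genes tested were, and 9 of them had an adjusted p under 0.05 in limma, where 14.1% of all genes did with a lower level. The log2 fold changes ran from -2.36 in COX1 to -1.69 in ATP8 with a median of -2.13. The 4 that missed the adjusted threshold were COX1, COX2, COX3 and ATP6, with adjusted p of 0.0767, 0.062, 0.0938 and 0.0765. These 4 most abundant mRNAs had the larger standard errors, up to 0.86. Without Sham replicate 2 only 6 of the 13 were called, and without the filter on low values 3 were, and with all reads on genes as the scale 11 were, ND3 and ATP8 being lost. This comparison shares its rats with both others, so the values stand side by side and do not add independent evidence.

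**Figure D2:**
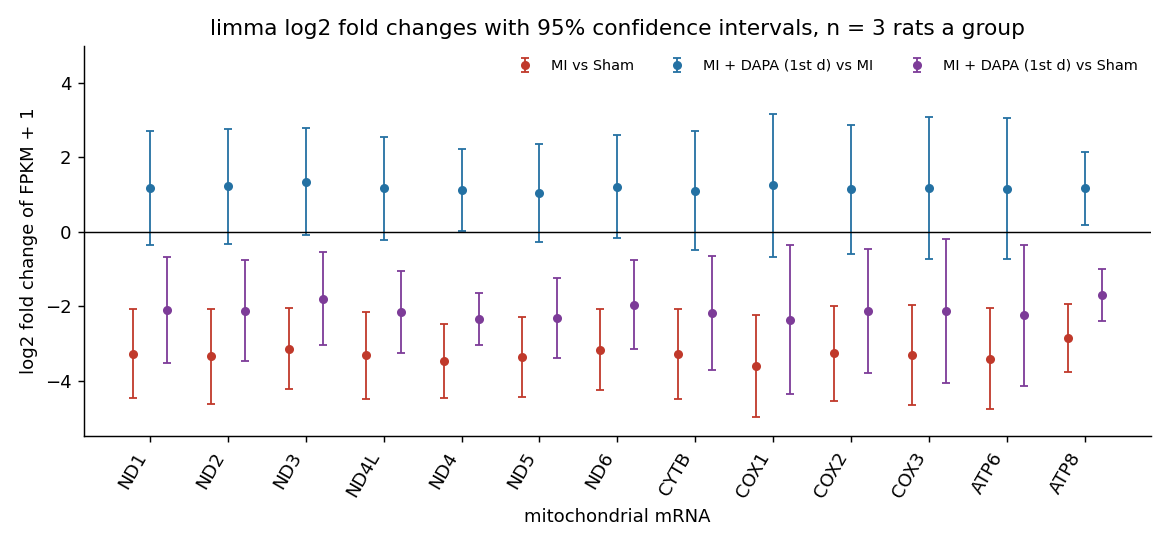
log2 fold changes of FPKM + 1 from limma with 95% confidence intervals for the 13 mRNAs in the 3 comparisons (n = 3 rats per group). The intervals of MI vs. Sham lie between -4.99 and -1.95, while 11 of the 13 intervals of DAPA vs. MI include 0.

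The order of the mRNAs by FPKM was much alike in the groups. By group means it ran COX1, COX3, ATP6, COX2, CYTB, ND1, ND2, ND3, ND4L, ND5, ND6, ND4 and ATP8 in group Sham. In group MI COX3 stood before COX1, and in the DAPA group ND6 stood before ND5. Neighbours in the order, such as COX3 and ATP6 or ND5 and ND6, had overlapping rats within a group. The share of each mRNA in the summed FPKM of the 13, which does not depend on library scaling, was compared next.

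COX1 held 22.7%, 21.8% and 22.6% of the summed FPKM in the Sham rats, 19.3%, 19.3% and 18.7% in the MI rats and 20.5%, 19.6% and 19.6% in the DAPA rats. All MI rats were below all Sham rats, and the DAPA rats lay between them without overlap. The difference was -3.30 percentage points in MI vs. Sham (exact permutation test, p = 0.1, adjusted over 13 mRNAs p = 0.578), 0.82 points in DAPA vs. MI (exact permutation test, p = 0.1, adjusted p = 0.325) and -2.48 points in DAPA vs. Sham (exact permutation test, p = 0.1, adjusted p = 0.433). With 3 rats per group no p below 0.1 was possible, so these shares cannot pass 0.05. The COX3 to COX1 ratio of FPKM was 0.788, 0.879 and 0.856 in group Sham, 0.9799, 1.07 and 1.05 in the MI group and 0.944, 0.993 and 1.02 in the DAPA group. The COX2 to COX1 ratio was 0.4796, 0.597 and 0.474 in group Sham, 0.638, 0.640 and 0.676 in the MI group and 0.597, 0.611 and 0.609 in the DAPA group. Within complex IV, then, both ratios were higher in each MI rat than in any Sham rat.

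ND3 held 3.30%, 4.15% and 3.17% in group Sham, 4.18%, 4.13% and 4.10% in the MI group and 4.87%, 4.43% and 4.60% in the DAPA group. The DAPA rats were above all others, while the Sham and MI rats overlapped through Sham replicate 2. ND1 held 6.53%, 6.15% and 6.77% in group Sham and 6.77%, 6.89% and 7.15% in group MI, without overlap. ND5 held 1.55%, 1.55% and 1.67% in the MI group and 1.35%, 1.52% and 1.45% in the DAPA group, and the treated rats were all lower.

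In all, 2 mRNAs had shares that did not overlap in MI vs. Sham (COX1 lower, ND1 higher), 4 in DAPA vs. MI (COX1 and ND3 higher, ND5 and COX2 lower) and 3 in DAPA vs. Sham (ND3 and COX3 higher, COX1 lower). On the FPKM scale 27.1% of all genes tested were higher and 27.5% lower without overlap in MI vs. Sham, 6.63% and 7.16% in DAPA vs. MI, and 23.2% and 23.3% in DAPA vs. Sham. As shares of reads, which weight long mRNAs more, 5 mRNAs did not overlap in MI vs. Sham, and COX1 was lower there by 4.41 points (a difference of -4.41). The remaining mRNAs overlapped in every comparison of FPKM shares. ATP6, for example, held 17.2% to 19.6% in group Sham and 17.4% to 18.5% in group MI.

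**Figure D3:**
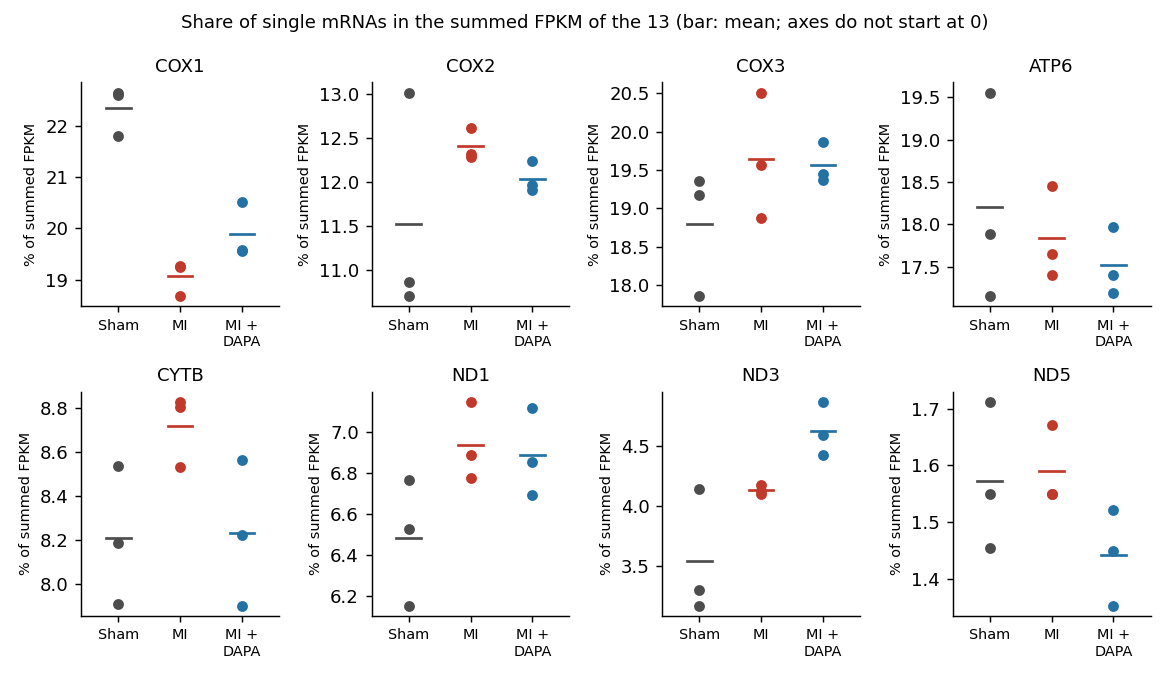
Share of 8 single mRNAs in the summed FPKM of the 13, with 1 point per rat and a bar at the group mean. The axes do not start at 0. COX1 is near 22% in the Sham rats and at 18.7% to 19.3% in the MI rats, and ND3 is highest in the 3 DAPA rats.

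The rRNA-length loci fell as well. AY172581.24 stood at 6762, 9477 and 6698 FPKM in group Sham, at 1005, 344 and 1001 FPKM in the MI group and at 1630, 1505 and 830 FPKM in the DAPA group. AY172581.9 stood at 8819, 14218 and 10854 FPKM in group Sham, at 961, 533 and 1236 FPKM in the MI group and at 1760, 2340 and 1343 FPKM in the DAPA group. Both were lower in every MI rat than in any Sham rat, and in AY172581.9 the DAPA rats were all above the MI rats. Among all genes tested, 27.5% were lower without overlap in MI vs. Sham and 6.63% higher in DAPA vs. MI. The log2 fold changes of the 2 loci in MI vs. Sham were -3.42 ± 0.45 and -3.69 ± 0.37 (SE, n = 3 per group, limma adjusted p = 0.00217 and 0.00114). With DAPA, AY172581.9 passed the test as higher (1.04 ± 0.40, limma adjusted p = 0.558), though not when scaled to all reads on genes (0.82), and AY172581.24 did not (0.85 ± 0.50, limma adjusted p = 0.593).

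Beads with poly-T oligos were used to purify the RNA, so the reads on these loci come from what that selection kept and do not measure total rRNA. Together the 2 loci had 19.7, 28.6 and 16.3 reads per 1000 reads on the 13 mRNAs in group Sham, 20.6, 19.7 and 17.6 in the MI group and 16.2, 13.9 and 18.7 in the DAPA group. The groups overlapped in each of the 3 comparisons (exact permutation tests, p = 0.8, p = 0.2 and p = 0.2). With 3 rats per group no p below 0.1 was possible, so these tests cannot decide whether the ratio differed.

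The 20 short loci were read very little. They are shorter than the cDNA fragments of 250 to 300 bp that were selected, so reads on them need not come from mature tRNA, and reads of neighbouring genes or of precursors that run over them cannot be told apart from it. They had 0.831, 0.818 and 1.15 reads per 1000 mRNA reads in group Sham, 0.961, 0.951 and 0.999 in the MI group and 0.940, 0.944 and 1.06 in the DAPA group. The ratios of all ligated rats lay within the range of the Sham rats (exact permutation tests, p = 1, p = 1 and p = 0.6).

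AY172581.2, of 68 bases, had most of these reads, at 6615, 7118 and 14041 FPKM in group Sham, at 1122, 539 and 1588 FPKM in the MI group and at 2948, 3512 and 1517 FPKM in the DAPA group. It passed the test as lower in MI vs. Sham (log2 fold change -3.14 ± 0.47) and as higher with DAPA (1.34 ± 0.51, limma adjusted p = 0.558). AY172581.10 stood at 1484, 1100 and 1705 FPKM in group Sham, at 130, 38.3 and 144 FPKM in the MI group and at 102, 188 and 151 FPKM in the DAPA group. AY172581.18 stood at 1097, 1432 and 1442 FPKM in group Sham, at 74.0, 39.3 and 150 FPKM in the MI group and at 75.8, 201 and 146 FPKM in the DAPA group. Their log2 fold changes were -3.95 ± 0.49 and -4.09 ± 0.44 in MI vs. Sham (SE, n = 3 per group, limma adjusted p = 0.0019 and 0.00136), further from 0 than that of any mRNA.

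The reads of 6 short loci were set against the mRNAs of the same libraries. AY172581.10 had 0.104, 0.0750 and 0.0903 reads per 1000 mRNA reads in group Sham, 0.0730, 0.0488 and 0.0626 in the MI group and 0.0266, 0.0386 and 0.0741 in the DAPA group. AY172581.18 had 0.0817, 0.103 and 0.0808 in group Sham, 0.0440, 0.0531 and 0.0689 in the MI group and 0.0208, 0.0437 and 0.0757 in the DAPA group. For both, all ligated rats were below all Sham rats (exact permutation tests, p = 0.1 in each comparison with group Sham, the smallest possible), and the ligated groups overlapped. These ratios rest on 46 to 1059 reads per rat. For AY172581.10 the highest DAPA ratio, 0.0741, was close to the lowest Sham ratio, 0.0750. On the FPKM scale 27.5% of all genes tested were lower without overlap in MI vs. Sham and 23.3% in DAPA vs. Sham. The ratio of AY172581.2 lay in the other direction, at 0.465, 0.485 and 0.743 in group Sham, 0.629, 0.687 and 0.689 in the MI group and 0.765, 0.722 and 0.743 in the DAPA group, where only the ligated groups did not overlap (exact permutation test, p = 0.1). In MI vs. Sham the ratios of AY172581.7, AY172581.20 and AY172581.16 differed by -0.0102, 0.00135 and 0.0123 with overlapping groups (exact permutation tests, p = 0.5, 1 and 0.2).

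The next 3 loci by reads had lower levels and wider spreads. AY172581.7 stood at 611, 511 and 1289 FPKM in group Sham, at 81.5, 20.6 and 98.02 FPKM in the MI group and at 52.3, 157 and 57.0 FPKM in the DAPA group. AY172581.20 stood at 449, 484 and 1052 FPKM in group Sham, at 91.5, 23.0 and 101 FPKM in the MI group and at 112, 136 and 81.7 FPKM in the DAPA group. AY172581.16 stood at 277, 533 and 625 FPKM in group Sham, at 66.2, 42.5 and 79.8 FPKM in the MI group and at 132, 203 and 68.3 FPKM in the DAPA group. All 3 were lower in each ligated rat than in any Sham rat.

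Over the unnamed loci, 19 of the 22 tested were called lower in MI vs. Sham, with a median log2 fold change of -3.15, and 16 of the 22 were lower without overlap, where 10.3% and 27.5% of all genes tested were. An adjusted p under 0.05 in limma was reached by 16 of the 22, where 19.5% of all genes tested reached it with a lower level. The 3 not called were AY172581.4, AY172581.12 and AY172581.22, which had at most 32 reads in any rat. AY172581.3 had 6 to 16 reads in the Sham rats and none in the MI rats, so it was at least 7.59-fold lower, with 3 reads in each MI rat as the floor. It passed the filter on low values only through the Sham rats, so its call as lower lends no support. With this locus at its bound the median was -3.03. The other called loci were AY172581.1, AY172581.5, AY172581.6, AY172581.8, AY172581.11, AY172581.14, AY172581.15, AY172581.17, AY172581.19 and AY172581.23. Of these, AY172581.6, AY172581.8, AY172581.15, AY172581.17 and AY172581.23 also needed the Sham rats to pass that filter. Their calls as lower lend no support either, and the counts and medians above include them. In DAPA vs. MI, 2 of 21 were called higher, AY172581.9 and AY172581.2, where 0.951% of all genes tested were, with a median of 0.81, and 3 of the 21 had a negative value. In DAPA vs. Sham, 16 of 22 were called lower, where 8.16% of all genes tested were, with a median of -2.39. Among those called there, AY172581.3, AY172581.11 and AY172581.17 needed the Sham rats to pass the filter, so their calls lend no support. Scaled to all reads on genes, 15, 1 and 14 loci were called in the 3 comparisons, and AY172581.2 and AY172581.16 were no longer called in DAPA vs. Sham, at -0.91 and -0.99. The 14 short loci beyond those with values above had means of only 4.22 to 148 reads per rat where a length was obtained.

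**Figure D4:**
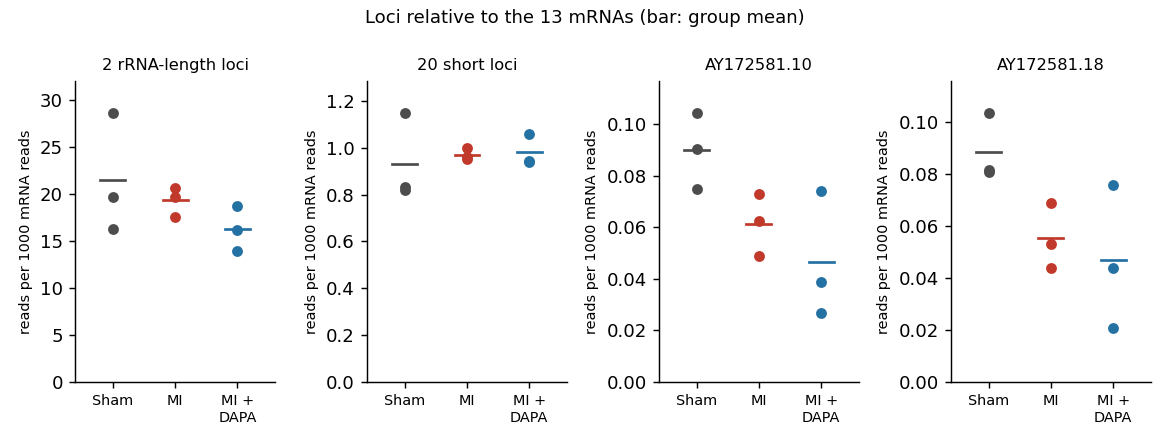
Reads of the 2 rRNA-length loci, of all 20 short loci, and of AY172581.10 and AY172581.18 per 1000 reads on the 13 mRNAs, with 1 point per rat and a bar at the group mean. The summed loci overlap between groups, while AY172581.10 and AY172581.18 are lower in all 6 ligated rats than in any Sham rat. On the FPKM scale 27.5% of all genes tested were lower without overlap in MI vs. Sham and 23.3% in DAPA vs. Sham.

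Nuclear genes for subunits of the same complexes fell less. Of 79 nuclear OXPHOS (oxidative phosphorylation) subunit genes found, 76 were tested, and 30 of them were called lower in MI vs. Sham, where 10.3% of all genes tested were, with a median log2 fold change of -0.84. On the scale of all reads on genes the median was 0.27, with 13 called higher and 1 lower. The median over all 13485 genes tested was 0.91 on that scale, with 5971 called higher and 319 lower. The sign of the nuclear median thus turned with the scale, but it lay below the median over all genes on both scales. The sign of the mitochondrial mRNAs did not turn. A difference of levels within a rat does not depend on that scale. The mean log2(FPKM + 1) of the 13 mitochondrial mRNAs minus that of the 79 nuclear subunits was 7.67, 7.53 and 7.69 in the Sham rats, 5.26, 4.79 and 5.26 in the MI rats and 5.52, 5.55 and 5.11 in the DAPA rats. All ligated rats were below all Sham rats, and the ligated groups overlapped.

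This gap was smaller by 2.52 log2 units in group MI than in group Sham (a difference of -2.52, exact permutation test, p = 0.1, the smallest possible). In DAPA vs. MI it differed by 0.29 (exact permutation test, p = 0.3), and in DAPA vs. Sham by -2.23 (exact permutation test, p = 0.1). By complex, the gap of mitochondrial to nuclear subunits differed between group MI and group Sham by -2.39 in complex I, -2.88 in complex III, -2.59 in complex IV and -2.32 in complex V (exact permutation tests, p = 0.1 for each). With DAPA against MI the same 4 values were 0.29, 0.17, 0.25 and 0.34 (exact permutation tests, p = 0.3, 0.6, 0.3 and 0.2).

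With DAPA the nuclear subunits lay higher too. In DAPA vs. MI, 25 of 76 nuclear subunit genes were called higher and none lower, with a median log2 fold change of 0.93, and none had an adjusted p under 0.05 in limma, while 55 had an unadjusted p under 0.05. The share called higher among all genes tested was 0.951%, and scaled to all reads on genes 4 of the 76 were called higher with a median of 0.71. On that scale 61 of the 13251 genes tested were called higher, and the median over all genes was -0.21. Against group Sham the median of the nuclear subunits was 0.13, with 6 called higher and 1 lower, where 9.54% of all genes tested were called higher and 8.16% lower, whereas the 13 mitochondrial mRNAs had a median of -2.13. Scaled to all reads on genes, that median of the nuclear subunits was 0.99, with 36 called higher and 0 lower. On that scale 4419 of the 13359 genes tested were called higher and 249 lower, with a median of 0.73 over all genes. Atp5f1b, the catalytic beta subunit of the ATP synthase, had 936, 1277 and 1466 FPKM in group Sham, 927, 498 and 1515 FPKM in the MI group and 1892, 2242 and 1163 FPKM in the DAPA group, and each pair of groups overlapped. Cox8b, a small heart and muscle subunit of complex IV, had a log2 fold change of -3.28 ± 0.59 in MI vs. Sham (limma adjusted p = 0.0059). Complex II, succinate dehydrogenase, has no mitochondrially encoded subunit. On the deposited scale none of its 4 nuclear genes was called in any of the 3 comparisons (limma, with 0 at an unadjusted p under 0.05 in MI vs. Sham and 3 in each of the others), and their median log2 fold change was -0.02 in MI vs. Sham. Scaled to all reads on genes, 3 were called higher in MI vs. Sham (median 1.08), 0 in DAPA vs. MI (median 0.50) and 4 in DAPA vs. Sham (median 1.59). In the same order the medians over all genes tested on that scale were 0.91, -0.21 and 0.73, with 5971, 61 and 4419 genes called higher.

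The mitochondrial mRNAs were also set against cardiomyocyte markers of the same rats. The mean log2 level of the 13 mRNAs minus that of 14 cardiomyocyte markers was 7.05, 6.72 and 6.95 in the Sham rats, 4.43, 4.49 and 3.92 in the MI rats and 4.28, 4.28 and 4.04 in the DAPA rats. The difference was -2.62 in MI vs. Sham (exact permutation test, p = 0.1), -0.08 in DAPA vs. MI (exact permutation test, p = 0.6) and -2.70 in DAPA vs. Sham (exact permutation test, p = 0.1). The cardiomyocyte markers summed to 9545, 11810 and 13642 FPKM in the Sham rats and to 22676, 26182 and 12400 FPKM in the DAPA rats. In MI replicate 3 they summed to 15700 FPKM, above all Sham rats, and in MI replicates 1 and 2 to 8538 and 3039 FPKM, below all Sham rats. The mean log2 level of the 13 mRNAs was 12.17, 10.97 and 12.58 in the MI rats against 15.05 to 15.46 in the Sham rats. Within each group the cardiomyocyte sums ranked the rats as this mean level did. What part of the difference between the ligated groups goes with cardiomyocyte content was not tested.

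**Figure D5:**
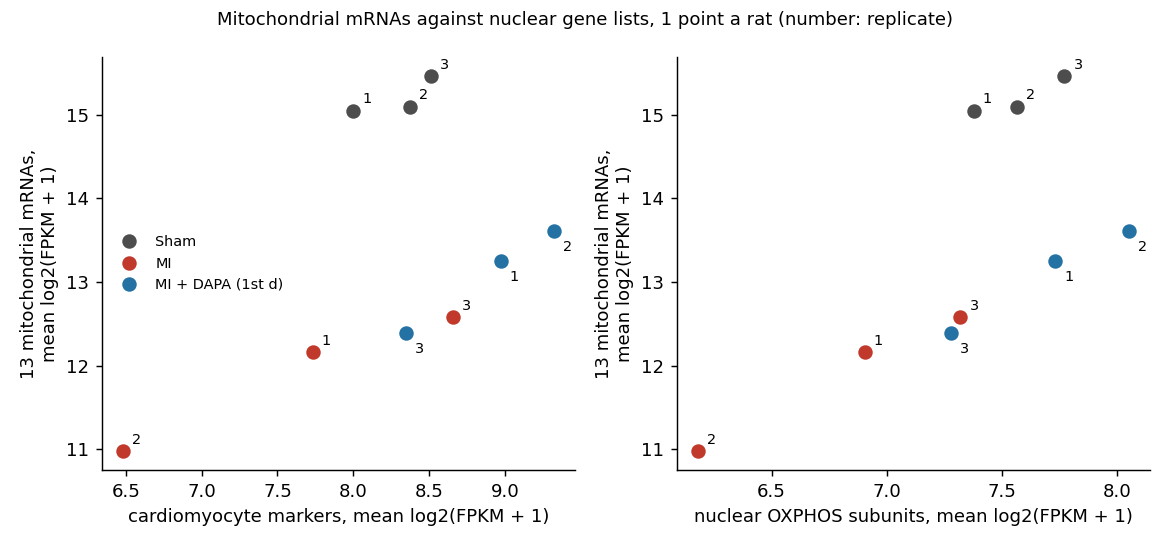
Mean log2(FPKM + 1) of the 13 mitochondrial mRNAs against that of 14 cardiomyocyte markers (left) and 79 nuclear OXPHOS subunit genes (right), with 1 point per rat labelled with its replicate number. The mRNAs exceed the nuclear subunits by 7.53 to 7.69 log2 units in the Sham rats and by 4.79 to 5.55 in the ligated rats.

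Few of the nuclear genes that copy, transcribe and process the mitochondrial genome were called on the deposited scale, and the sign of their median turned with the scale. Of 82 such nuclear genes found, 76 were tested. In MI vs. Sham 5 were called lower and 1 higher, where 10.3% and 12.1% of all genes tested were, with a median log2 fold change of -0.40. On the scale of all reads on genes the median was 0.54, with 15 called higher and none lower. The median over all 13485 genes tested was 0.91 on that scale, with 5971 called higher and 319 lower. The median of the list thus lay below that of all genes on both scales. Tfam, which packs the genome and starts its transcription, had 20.1, 14.7 and 20.1 FPKM in group Sham, 20.8, 19.7 and 20.2 FPKM in the MI group and 26.6, 30.2 and 22.002 FPKM in the DAPA group. Its log2 fold change was 0.15 ± 0.16 in MI vs. Sham (limma adjusted p = 0.49), and all DAPA rats were above the others (0.35 ± 0.15 against group MI, limma adjusted p = 0.558). Among all genes tested, 6.63% were higher without overlap in DAPA vs. MI and 23.2% in DAPA vs. Sham. Polrmt, the mitochondrial RNA polymerase, had 5.59, 13.9 and 9.25 FPKM in group Sham, 5.07, 4.17 and 5.78 FPKM in the MI group and 4.61, 6.15 and 4.99 FPKM in the DAPA group, so that Sham replicate 1 overlapped with the ligated rats. Its log2 fold change in MI vs. Sham was -0.75 on the deposited scale and 0.22 scaled to all reads on genes.

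The genes called lower in MI vs. Sham were Mterf1, Tfb2m, Top1mt, Fastkd1 and Hars2. Mterf1, a transcription termination factor of mitochondria, had the smallest p of the list, with 16.1, 19.4 and 16.3 FPKM in group Sham, 5.76, 7.24 and 5.98 FPKM in the MI group and 6.99, 9.79 and 5.67 FPKM in the DAPA group. Its log2 fold change was -1.32 ± 0.16 in MI vs. Sham (limma adjusted p = 0.00165) and 0.19 ± 0.20 with DAPA against MI (limma adjusted p = 0.737). Tfb2m, which opens the promoter for the polymerase, had a log2 fold change of -1.09 ± 0.21, and Top1mt, the mitochondrial topoisomerase, one of -1.02 ± 0.19. Fastkd1, a member of the FASTK family of mitochondrial RNA-binding proteins, had 9.62, 10.3 and 6.45 FPKM in group Sham, 3.16, 3.07 and 3.01 FPKM in the MI group and 2.51, 3.64 and 2.78 FPKM in the DAPA group. With DAPA against MI its value was -0.05 ± 0.16 and that of Top1mt 0.04 ± 0.16 (limma adjusted p = 0.927 and 0.94). On the scale of all reads on genes Mterf1, Fastkd1 and Top1mt were no longer called, at -0.31, -0.32 and -0.11.

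Hsd17b10, a subunit of the RNase that cuts the 5' ends of mitochondrial tRNAs, was the 1 gene called higher, at 0.513, 2.20 and 1.34 FPKM in group Sham, 2.22, 4.56 and 5.49 FPKM in the MI group and 7.94, 5.68 and 6.12 FPKM in the DAPA group. Hars2, the mitochondrial histidyl-tRNA synthetase, had a log2 fold change of -1.05 ± 0.23. Qrsl1, which helps to charge the glutamine tRNA, and Ptcd2, a protein of mitochondrial RNA processing, had values of -0.97 ± 0.16 and -0.999 ± 0.18 (limma adjusted p = 0.00448 and 0.00607) and just missed the fold threshold.

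The other genes of this kind were not called on the deposited scale. Polg, the DNA polymerase of mitochondria, had a mean of 6.84 FPKM in group Sham, 11.5 in the MI group and 9.96 in the DAPA group, with a log2 fold change of 0.68 ± 0.15 in MI vs. Sham. Scaled to all reads on genes, Polg and Tfam were called higher in that comparison, at 1.65 and 1.20. On that scale 5971 of the 13485 genes tested were called higher, with a median of 0.91 over all genes. Twnk, the helicase, had means of 4.197, 3.27 and 4.30 FPKM in the same order. Ssbp1, which coats single-stranded mitochondrial DNA, had means of 21.2, 13.007 and 18.4 FPKM. Lrpprc and Slirp, which together bind and stabilise mitochondrial mRNAs, had log2 fold changes of 0.08 ± 0.20 and -0.45 ± 0.19 in MI vs. Sham. Elac2, which cuts the 3' ends of the tRNAs, had means of 8.06, 7.78 and 8.29 FPKM. Fastkd5 was not analysed here.

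With DAPA against MI, 1 machinery gene was called, Slc25a4, the ADP/ATP carrier of heart mitochondria that was listed for its link to genome maintenance, at 1.26 ± 0.47 (limma adjusted p = 0.558). The share called higher among all genes tested was 0.951%. The 4 other genes with the smallest p in that comparison were Mrm3, Ptcd2, Cars2 and Trmu, which act on mitochondrial rRNA, RNA processing, tRNA charging and tRNA modification, with log2 fold changes of 0.71 ± 0.26, 0.47 ± 0.17, 0.35 ± 0.14 and 0.40 ± 0.16 and limma adjusted p of 0.558 each. In DAPA vs. Sham, Mterf1 and Fastkd1 were called lower and Hsd17b10 higher, and the median over 76 tested genes was -0.13.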

How the data were processed

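RNA-seq of left ventricles from 9 rats was deposited by the authors as 1 table of FPKM values, 1 column per rat, with 35843 genes and 0 columns left unused. RNA had been purified with poly-T beads and made into libraries with a kit that does not mark strand. The labels name HISAT2 2.0.5, StringTie 1.3.3b, featureCounts 1.5.0-p3 and DESeq2, and the genome build is not given in the sources used here, so no coordinates or sequences are given. Each FPKM was the authors' read count divided by gene length and a library denominator. From the steps between values, whole reads (within 0.02 of a read) and lengths were recovered for 100% of the 18896 genes that had values in 4 libraries or more. Depth is that of recovered reads, and shares and bounds cover counting error only.

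Groups and replicate numbers came from the labels, and the study calls the replicates biological. Each pair of groups was fitted with limma 3.58.1 (R 4.3.3, trend) on log2(FPKM + 1) without covariates, dropping genes that did not reach an FPKM of 1 in 3 or more of the 6 rats. Fold changes are on that scale and are understated for low genes. A gene was called where its unadjusted p was under 0.05 and its log2 fold change beyond 1 in either direction, the study's thresholds, and adjusted p are Benjamini-Hochberg values over all genes tested. Two-sided exact permutation tests over rats were run in Python 3.11.15 with scipy 1.17.1. The limma step and the recovery of reads were tested on simulated data.

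The members and the gene lists were chosen with earlier results of these data known, so no list is independent evidence. Named were all 13 mRNAs, the 2 and the next 6 loci by mean reads, called loci, 9 set machinery genes and the 5 with the smallest limma p in MI vs. Sham and in DAPA vs. MI, and for nuclear OXPHOS at most 2 genes per complex with the highest mean FPKM. Machinery genes called outside this rule (Tfb2m, Hars2 and Hsd17b10) were named after their values were seen, as were the ratios between mRNAs. Of list genes named by 2 rows (2 genes), the row with the higher mean was used. Replicate libraries of a group differed by more than sampling noise. Alternatives were another pseudocount, no filter on low values, 1 fit over all rats, replicate number as a block, scaling to all reads or to reads outside the mitochondrial genome, adjusted p, and each rat left out in turn.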

Additional observations from a re-analysis of the deposited data

How the results depend on the processing

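Where called, the 13 mRNAs, the 8 loci given by rat, Mterf1, Fastkd1, Top1mt and Slc25a4 kept their direction in each alternative run. The median of 35 nuclear complex I subunits in MI vs. Sham went from -1.07 to 0.04 when scaled to all recovered reads. That of all genes tested went from -0.01 to 0.91. Without the filter on low values 6 of the 13 mRNAs were called in MI vs. Sham, 1 in DAPA vs. MI and 3 in DAPA vs. Sham, at medians of -3.31, 1.17 and -2.13, and the unnamed loci called in the second comparison fell to 0. Scaled to all recovered reads, the medians of the 13 mRNAs were -2.20, 0.95 and -1.25, with 0 mRNAs and 1 locus (AY172581.2) called in the second comparison. The machinery genes called on that scale were 15 and 14 in the comparisons of MI and DAPA with Sham. Of all genes tested, 46.6% and 34.9% were called there. Scaled to reads outside the mitochondrial genome, 11 machinery genes were called in MI vs. Sham, and with a pseudocount of 0.1, 12, and 5 in DAPA vs. Sham. With adjusted p, 0 mRNAs, 0 loci and 0 machinery genes remained in DAPA vs. MI. As shares of reads, 5 mRNAs did not overlap in MI vs. Sham. The cause was not tested for any of these.

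With each rat left out in turn, the mRNAs called numbered 13 to 13, 0 to 13 and 6 to 13 in the 3 comparisons, at medians of -3.63 to -2.82, 0.70 to 1.51 and -2.40 to -1.79. The loci called numbered 15 to 19, 0 to 4 and 16 to 18, and machinery genes 2 to 11, 0 to 1 and 2 to 4. The mRNA shares that did not overlap numbered 2 to 5, 4 to 5 and 4 to 5. Leaving out a rat can only narrow the range of its group, so these counts could not fall and do not show stability. The fewest machinery genes in MI vs. Sham, 2, came without MI replicate 2 and the most, 11, without Sham replicate 1.

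Same-numbered rats are different animals, and their deviations from the group means correlated at -0.32 to 0.20 over the 3 comparisons. Those of differently numbered rats correlated at -0.24 to 0.34. With 3 rats per group these values cannot show whether the numbers mark a shared batch. Blocking on the replicate number, 13, 0 and 5 mRNAs were called, 0 loci and 0 machinery genes in DAPA vs. MI, and 18 loci and 3 machinery genes in DAPA vs. Sham. The planned count models on recovered reads (edgeR with and without TMM, DESeq2) were not run, because the deposited unit is FPKM. Depth limits the short loci, most of which had under 150 reads per rat on average.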
